A study of Mus musculus with 35 samples.

Results

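The expression of 10 genes was followed across the livers of 35 mice. Of these genes, 5 mark hepatocytes around the central vein (the pericentral genes Glul, Oat, Axin2, Slc1a2 and Rhbg), 3 mark hepatocytes around the portal vein (the periportal genes Hal, Sds and Gls2), and 2 encode secreted signals of the Wnt pathway that liver endothelial cells make (Wnt2 and Rspo3). The genes were chosen by symbol, and their probe sets, each a group of short probes that reads 1 transcript, were taken from the platform's annotation. That annotation gave 15 probe sets of 1 gene to 8 of the 10 genes. It listed none for Sds and Gls2, which were not analysed here, so Hal was the only measured periportal gene of the 10. Of the 15 probe sets, 11 passed a filter on low signals, at least 1 for each of the 8 genes. The 4 below the filter were 1 of Axin2, 2 of Slc1a2 and 1 of Rspo3.

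Each BALB/c mouse received 1 intravenous injection, and the left lateral lobe of the liver was sampled 6 h later. The 6 particle groups received silica particles of different size, SP30 at 10 mg/kg, SP300 at 10 or 200 mg/kg, or SP70 at 10, 20 or 40 mg/kg, and the control group received deionized water, the vehicle. There were 5 mice in each of the 7 groups, and each mouse gave 1 array. The study asked how the response depends on the dose of SP70, and whether particles of unlike size differ, first when each is given at 10 mg/kg and then at the doses named as toxic, which were SP30 at 10, SP70 at 40 and SP300 at 200 mg/kg.

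The labelled tissue carried the marks of hepatocytes in every group. Albumin (Alb) had a signal between 60791 and 92503.5 in the treated mice and between 68202 and 81399.7 in the controls. All of these signals lay above 48037, the level past which a fold was taken as a lower bound. The summed signal of 10 hepatocyte markers was between 628968 and 853163 in the treated mice and between 711746 and 754073 in the controls. Array medians were between 149 and 180, and arrays of 1 group correlated at 0.941 or more over all probe sets on the log2 scale.

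Hepatocytes differ in what they do along the path of the blood from the portal vein to the central vein. Endothelial cells of the central vein release Wnt proteins and R-spondins, which keep β-catenin active in the hepatocytes next to them. Those hepatocytes make glutamine from the ammonia that has escaped the urea cycle upstream, and genes such as Glul and Axin2 depend on that signal. Periportal hepatocytes, where β-catenin activity is low, make glucose and urea and break down amino acids, histidine among them.

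The promoters of Hal, Glul and Wnt2 are shown because these 3 of the 8 measured genes differed from control in more than 1 treated group. Each is the 250 bases before the start of the gene as RefSeq gives it, in mouse build GRCm38.p6, written 5′ to 3′ on the gene's own strand. The Hal window is chr10:93488518-93488767 on the plus strand, that of Glul is chr1:153899679-153899928 on the plus strand, and that of Wnt2 is chr6:18030446-18030695 on the minus strand. Capitals mark matches, on either strand, to the core that TCF and LEF factors bind downstream of β-catenin (ATCAAAG, or CTTTGAT on the other strand), to the CCAAT box (CCAAT or ATTGG) and to the TATA box (TATAAA or TTTATA). No match overlapped another.
Hal: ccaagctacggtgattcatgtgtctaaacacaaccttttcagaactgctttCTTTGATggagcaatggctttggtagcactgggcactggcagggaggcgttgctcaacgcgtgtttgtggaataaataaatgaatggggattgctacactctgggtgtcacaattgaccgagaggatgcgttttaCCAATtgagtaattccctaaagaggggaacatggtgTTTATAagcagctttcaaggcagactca
Glul: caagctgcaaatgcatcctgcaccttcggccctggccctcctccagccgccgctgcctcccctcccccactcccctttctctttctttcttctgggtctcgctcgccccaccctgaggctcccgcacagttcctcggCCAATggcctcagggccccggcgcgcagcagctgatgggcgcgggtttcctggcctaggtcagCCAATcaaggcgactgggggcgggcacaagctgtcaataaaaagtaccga
Wnt2: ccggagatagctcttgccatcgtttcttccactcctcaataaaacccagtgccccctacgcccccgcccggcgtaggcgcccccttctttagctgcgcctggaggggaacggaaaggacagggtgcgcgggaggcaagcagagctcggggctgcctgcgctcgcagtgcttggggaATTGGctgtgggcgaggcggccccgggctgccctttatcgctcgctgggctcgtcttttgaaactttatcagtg
The TCF and LEF core occurred once in the Hal window, with its first base at -199 from the start, and was not among these letters in the Glul and Wnt2 windows. It occurs in 3.21% of the 32851 mouse promoter windows of the same length. Hal also held a CCAAT box at -64 and a TATA box at -28, Glul held CCAAT boxes at -113 and -50, and Wnt2 held a CCAAT box on the other strand at -74. A CCAAT box occurs in 33.8% and a TATA box in 12.4% of all windows. The Hal window was 45.6% G and C, against 64.8% for Glul, 63.6% for Wnt2 and a median of 52.4% over all windows. Of the other members, Oat, Axin2 and Slc1a2 also had a window in the table. The Slc1a2 window held the TCF and LEF core once, at -207, Oat held CCAAT boxes at -47 and -22, and Axin2 held none of the 3 motifs. These matches describe letters and are not measured binding sites.

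Of the 8 genes, 3 changed against control. Hal, the periportal gene, fell by up to 4.23-fold, Wnt2 fell from a low level, and Glul, the glutamine synthetase of the pericentral rim, rose by a small amount, while Oat, Axin2, Slc1a2, Rhbg and Rspo3 did not pass the test against control in any group. Signals are the deposited values on a linear scale, changes are differences of log2(signal + 12.5) with the standard error (SE) of the fit, and a gene was called when its p-value, adjusted over all 12678 genes of the comparison, was under 0.05. After SP30 at 10 mg/kg, 2 of the 8 genes were called (Hal and Wnt2), where 49.2% of all genes were. After SP300 the count was 0 of 8 at 10 mg/kg, where 1.17% of all genes were called, and 3 of 8 at 200 mg/kg (Glul, Hal and Wnt2), where 30.6% were. With SP70 it was 0 of 8 at 10 mg/kg, 3 of 8 at 20 mg/kg and 3 of 8 at 40 mg/kg (Glul, Hal and Wnt2 at both), where 18.1%, 39.6% and 44.3% of all genes were called at the 3 doses in the same order. These counts lay near or under the share of all genes called, so they are no result about the 8 genes as a set. The 6 comparisons share the 5 control mice.

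**Figure D1:**
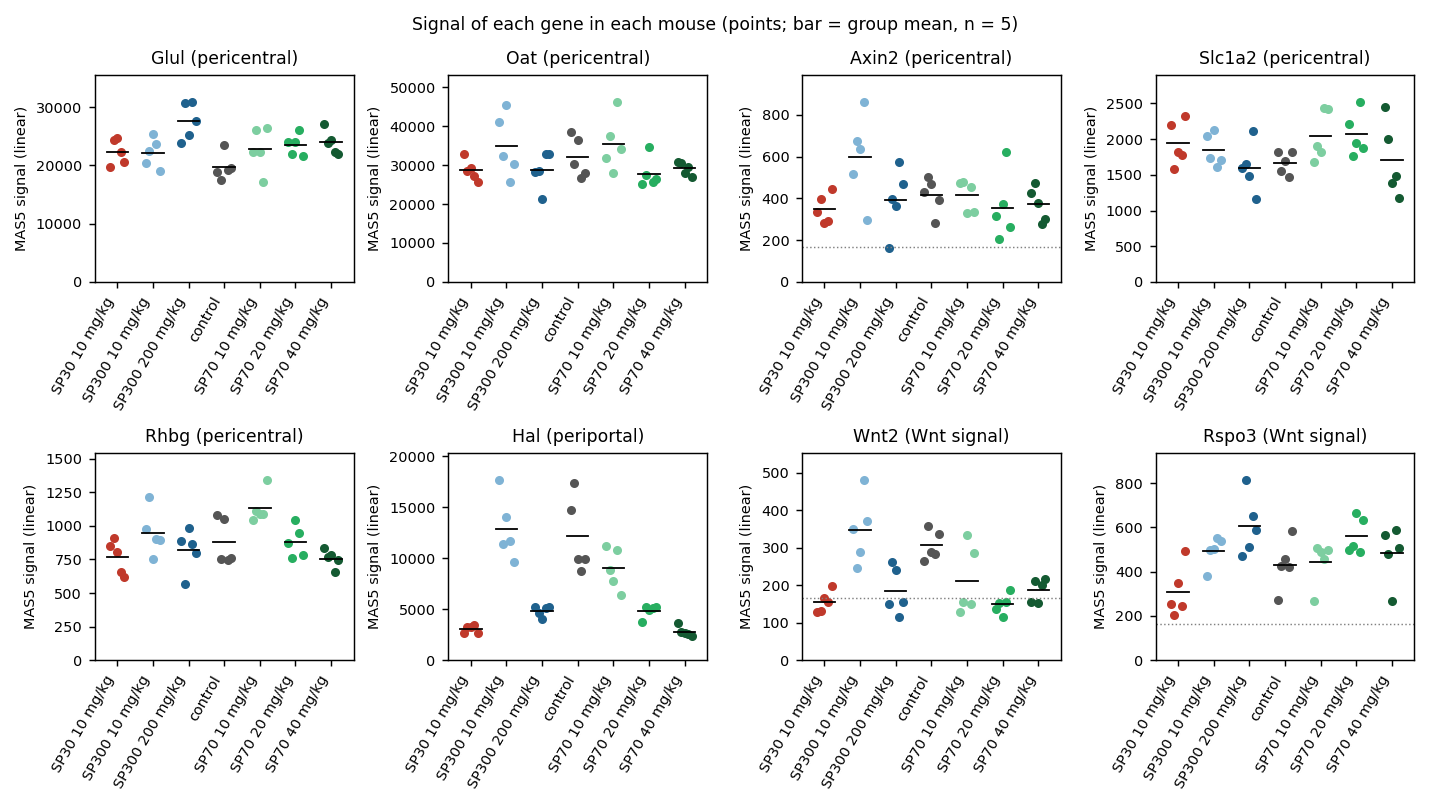
Signal of each measured gene in each mouse (vertical axes, linear MAS5 signal) by group (horizontal axis); points are mice, bars are means of 5, and the dotted line is the filter level of 165. Hal points of SP30 10 mg/kg, SP300 200 mg/kg, SP70 20 mg/kg and SP70 40 mg/kg lie below all 5 control points, and many Wnt2 points of the treated groups lie near the dotted line.

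**Figure D2:**
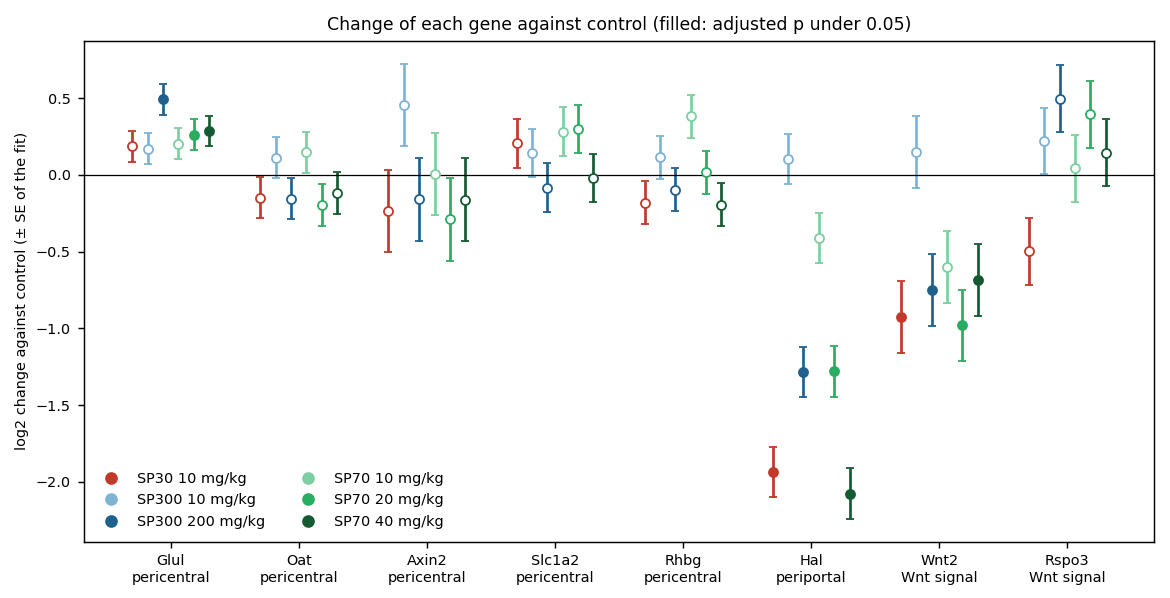
Change of each measured gene against control (vertical axis, difference of log2 signal, bars ± SE of the fit) for the 6 treated groups; filled points had an adjusted p under 0.05. Hal reached -2.08 at SP70 40 mg/kg, Wnt2 lay between -0.60 and -0.98 in every treated group except SP300 10 mg/kg, and Glul lay above 0 in all 6.

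Hal encodes histidase, the enzyme that opens the breakdown of histidine, and it fell with the dose of SP70 and, at 10 mg/kg, most after SP30. Its signal was 2709, 3207, 3232, 3476 and 2713 in the SP30 mice. In the SP300 mice it was 17670.5, 11354, 14049, 11658 and 9600.2 at 10 mg/kg, and 5173, 4612, 4014, 5102 and 5224 at 200 mg/kg. The SP30 mice and the SP300 mice at 200 mg/kg all lay below the lowest control, whereas the SP300 mice at 10 mg/kg lay among the controls. Along the SP70 series Hal had signals of 14758, 17398, 9890.3, 8714 and 9943 in the controls, 11156, 8880.4, 7801, 10756 and 6363 at 10 mg/kg, 3760.1, 5228, 4926, 5089.6 and 5241 at 20 mg/kg, and 3609.9, 2767, 2649, 2562 and 2389 at 40 mg/kg. The mice at 10 mg/kg overlapped the controls, those at 20 mg/kg lay below every mouse at 10 mg/kg and every control, and those at 40 mg/kg lay below every mouse at 20 mg/kg. In a whole lobe, fewer cells of a type and less RNA per cell cannot be told apart, for this gene and for those that follow.

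In the fit, Hal fell by 1.94 ± 0.17 on the log2 scale after SP30, 3.84-fold lower than in controls (adjusted p = 7.93e-12). After SP300 at 200 mg/kg the change was -1.28 ± 0.17, 2.44-fold lower (adjusted p = 1.98e-07), and at 10 mg/kg it was 0.10 ± 0.17 (adjusted p = 0.84). With SP70 the change was -0.41 ± 0.17 at 10 mg/kg (adjusted p = 0.083), -1.28 ± 0.17 at 20 mg/kg (2.43-fold lower, adjusted p = 1.14e-07) and -2.08 ± 0.17 at 40 mg/kg (4.23-fold lower, adjusted p = 2.14e-12). The 10 mg/kg change passed the threshold without control replicate 4 (-0.52, adjusted p = 0.032) or without SP70 10 mg/kg replicate 1 (-0.50, adjusted p = 0.047). The linear slope over 0, 10, 20 and 40 mg/kg was -0.0535 ± 0.00395 log2 units per mg/kg (adjusted p = 3.66e-13). Along that slope 4 of the 8 genes were called (Hal, Wnt2, Glul and Rhbg), where 45% of all genes were.

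Ordered by mean signal, Hal was lowest at SP70 40 mg/kg (2795 ± 476, SD, n = 5 in this and the other groups). It averaged 3067 ± 342 after SP30, 4825 ± 515 after SP300 at 200 mg/kg, 4849 ± 622 at SP70 20 mg/kg and 8991 ± 2009 at SP70 10 mg/kg. The highest means were 12866 ± 3118 after SP300 at 10 mg/kg and 12140.5 ± 3746 in the controls. Neighbours in that order that were not told apart were SP30 and SP70 40 mg/kg (0.14 ± 0.17, adjusted p = 0.71), SP70 10 mg/kg and control, and SP300 10 mg/kg and control. SP300 at 200 mg/kg and SP70 at 20 mg/kg were not compared by a test, and their ranges overlapped.

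The later steps of the pathway that Hal opens were followed because Amdhd1 was the gene most like Hal, and Uroc1 and Ftcd were on the list of periportal genes; setting these 4 genes side by side was chosen after their values were seen. Uroc1, urocanase, acts on the product of Hal, Amdhd1, imidazolonepropionase, acts on the product of Uroc1, and Ftcd, formiminotransferase, closes the path by passing a formimino group to folate. Amdhd1 fell too, with changes of -1.99 after SP30 (adjusted p = 4.64e-13), -1.34 after SP300 at 200 mg/kg (adjusted p = 1.65e-08), and -0.46, -1.51 and -1.89 at SP70 10, 20 and 40 mg/kg (adjusted p = 0.029, 6.00e-10 and 2.54e-12). Uroc1 and Ftcd fell in the same groups except SP70 10 mg/kg, by less. Uroc1 changed by -0.37 ± 0.09 after SP30, -0.25 ± 0.09 after SP300 at 200 mg/kg, and -0.35 ± 0.09 and -0.44 ± 0.09 at SP70 20 and 40 mg/kg (adjusted p between 8.6e-05 and 0.032). Ftcd changed by -0.53 ± 0.10, -0.34 ± 0.10, -0.54 ± 0.10 and -0.60 ± 0.10 in those groups in the same order (adjusted p between 1.1e-05 and 0.010). At SP300 10 mg/kg the 4 enzymes lay between 0.07 and 0.20, and none was called.

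**Figure D3:**
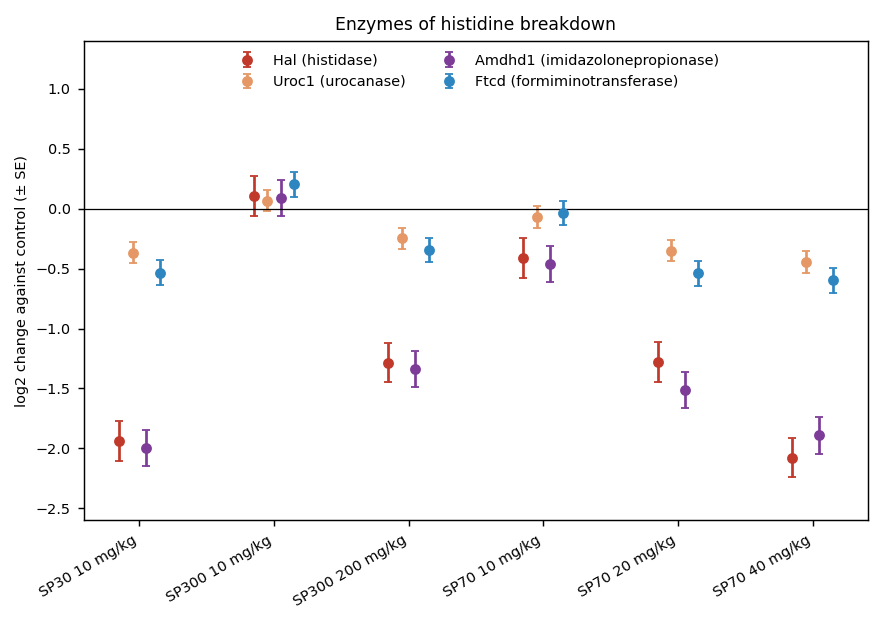
Change against control (vertical axis, difference of log2 signal, bars ± SE) of the 4 enzymes of histidine breakdown in the 6 treated groups. Hal and Amdhd1 lie near -2 after SP30 and at SP70 40 mg/kg, Uroc1 and Ftcd lie between -0.25 and -0.60 in the groups where they were called, and all 4 lie at or above 0 at SP300 10 mg/kg.

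Over the 35 arrays, the log2 signals of Hal and Amdhd1 had a Pearson r of 0.966, and those of Hal with Coq8a and Cth had r of 0.959 and 0.953. These were the 3 highest of all genes. Coq8a is a mitochondrial kinase-like protein needed for coenzyme Q, and Cth makes cysteine from cystathionine. After the group means were taken out, r was 0.683, 0.602 and 0.579 for the 3 in the same order. All arrays of a group share the treatment, so the first set of values is a description of shared group differences.

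Direct comparisons placed Hal apart between doses and between particle sizes. At 10 mg/kg, Hal was lower after SP30 than after SP70 (-1.52 ± 0.17 on the log2 scale, adjusted p = 2.45e-08) and than after SP300 (-2.04 ± 0.17, adjusted p = 2.28e-12), with no overlap of mice in either comparison. The SP70 and SP300 groups at 10 mg/kg overlapped, and the difference was -0.51 ± 0.17 (adjusted p = 0.024). That last call was lost when the fit held only the groups compared (adjusted p = 0.053), and also without SP70 10 mg/kg replicate 3 or 5, or SP300 10 mg/kg replicate 1 or 3 (adjusted p between 0.0523 and 0.0996). At the toxic doses, Hal was lower after SP30 than after SP300 (-0.65 ± 0.17, adjusted p = 0.0030) and lower after SP70 than after SP300 (-0.79 ± 0.17, adjusted p = 0.0010), again without overlap. In those comparisons dose differed along with size, and the effects of size and dose cannot be told apart. Between SP70 doses the differences were -0.87 ± 0.17 for 20 over 10 mg/kg, -0.80 ± 0.17 for 40 over 20 mg/kg and -1.67 ± 0.17 for 40 over 10 mg/kg (adjusted p = 0.00040, 0.0014 and 5.29e-09), and between SP300 doses the difference was -1.39 ± 0.17 for 200 over 10 mg/kg (adjusted p = 5.32e-08).

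Read against all genes, those direct calls were common in some comparisons and rare in others. Of the 8 members, 2 were called between SP30 and SP70 at 10 mg/kg (28.9% of all genes), 4 between SP30 and SP300 at 10 mg/kg (51.7%) and 2 between SP70 and SP300 at 10 mg/kg (20.6%). The counts were 3 between SP300 doses (31.7% of all genes), 1 between SP70 at 20 and 10 mg/kg (16.9%), 1 between SP70 at 40 and 20 mg/kg (11.5%) and 2 between SP70 at 40 and 10 mg/kg (30.5%). At the toxic doses they were 0 between SP30 and SP70 (5.73%), 3 between SP30 and SP300 (29.1%) and 1 between SP70 and SP300 (15.4%). Hal was among the called members in each of the 9 comparisons that had any.

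Wnt2, a Wnt ligand of liver endothelium, fell in 4 of the 6 treated groups from a level not far above the filter on low signals. Its signal was 129.8, 132, 167, 156 and 197 in the SP30 mice. In the SP300 mice it was 351, 246, 289, 482 and 373 at 10 mg/kg, and 151, 263, 241, 114 and 155 at 200 mg/kg. The SP30 mice and the SP300 mice at 200 mg/kg all lay below the lowest control of 266. Along the SP70 series it was 266, 359, 289, 284 and 336 in the controls, 129, 154, 336, 151 and 286 at 10 mg/kg, 137, 153, 117, 154 and 189 at 20 mg/kg, and 155, 210.2, 152, 199.8 and 217 at 40 mg/kg. At 20 and 40 mg/kg all mice lay below the lowest control, and at 10 mg/kg 3 of 5 did. Every control lay above the filter level of 165, but 3 of 5 mice lay under it after SP30, 3 after SP300 at 200 mg/kg, and 3, 4 and 2 over the SP70 doses in rising order, so the folds are lower bounds computed from signals raised to 165.

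In the fit, Wnt2 fell by 0.93 ± 0.23 on the log2 scale after SP30, at least 1.78-fold lower (adjusted p = 0.0012), and it changed by -0.75 ± 0.23 after SP300 at 200 mg/kg, at least 1.56-fold lower (adjusted p = 0.013). The SP300 200 mg/kg call was lost without SP300 200 mg/kg replicate 4 (-0.60, adjusted p = 0.057). At SP300 10 mg/kg the change was 0.15 ± 0.23 (adjusted p = 0.84). With SP70 the change was -0.60 ± 0.23 at 10 mg/kg (adjusted p = 0.070), -0.98 ± 0.23 at 20 mg/kg (at least 1.80-fold lower, adjusted p = 0.00087) and -0.69 ± 0.23 at 40 mg/kg (at least 1.60-fold lower, adjusted p = 0.016). The 10 mg/kg value passed the threshold without SP70 10 mg/kg replicate 3 (-0.78, adjusted p = 0.014) or 5 (-0.73, adjusted p = 0.037), the mice with the highest signals of that group. The slope was -0.0153 ± 0.0056 log2 units per mg/kg (adjusted p = 0.024), and it was no longer called without SP70 40 mg/kg replicate 1 or 3 (adjusted p = 0.061 and 0.066).

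Among the treated groups other than SP300 10 mg/kg, the mean Wnt2 signal ran from 150.1 ± 26.5 at SP70 20 mg/kg through 156 ± 27.6 after SP30, 185 ± 63.8 after SP300 at 200 mg/kg and 187 ± 31.1 at SP70 40 mg/kg to 211 ± 93.1 at SP70 10 mg/kg, and no direct comparison made between those 5 groups was called. SP300 at 10 mg/kg averaged 348 ± 89.9 and the controls 307 ± 39.0. Against SP300 at the same dose, Wnt2 was lower after SP30, without overlap (-1.08 ± 0.23, adjusted p = 0.00020), and lower after SP70, with overlap (-0.75 ± 0.23, adjusted p = 0.019). The SP70 difference was lost in the fit of only those groups (adjusted p = 0.074) and without SP70 10 mg/kg replicate 1, 2 or 4 or SP300 10 mg/kg replicate 4 (adjusted p between 0.053 and 0.076). Between SP300 doses Wnt2 was lower at 200 than at 10 mg/kg (-0.90 ± 0.23, adjusted p = 0.0029).

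Rspo3, an R-spondin that raises Wnt receptor levels on hepatocytes, was not called against control in any group. Its signal was 253, 206, 347, 243 and 492 in the SP30 mice. In the SP300 mice it was 381, 500.0, 502, 554 and 538 at 10 mg/kg, and 472, 815, 512, 653 and 588 at 200 mg/kg. Every treated group overlapped the controls, with 3 of 5 SP30 mice below the lowest control and 3 of 5 SP300 mice at 200 mg/kg above the highest. Along the SP70 series the range was 269.9 to 582 in the controls, 269 to 507 at 10 mg/kg, 487 to 666 at 20 mg/kg and 265 to 589.7 at 40 mg/kg. The change was -0.50 ± 0.22 after SP30 (adjusted p = 0.057), 0.50 ± 0.22 after SP300 at 200 mg/kg (adjusted p = 0.082), and 0.04, 0.39 and 0.14 ± 0.22 over the SP70 doses (adjusted p between 0.15 and 0.93).

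The Rspo3 value after SP30 depended on single mice. It passed the threshold without SP30 replicate 5 (-0.68, adjusted p = 0.0093) or 3 (-0.56, adjusted p = 0.048), without control replicate 1 (-0.65, adjusted p = 0.015), without SP70 10 mg/kg replicate 1 (adjusted p = 0.044) or SP70 40 mg/kg replicate 3 (adjusted p = 0.037), and with the replicate number as a block (adjusted p = 0.038). The SP300 200 mg/kg value passed without control replicate 5 (0.61, adjusted p = 0.039). Between SP30 and SP300 groups there were called differences. Rspo3 was lower after SP30 than after SP300 at 10 mg/kg (-0.72 ± 0.22, adjusted p = 0.0057). It was also lower than after SP300 at 200 mg/kg, where the dose differed too (-0.99 ± 0.22, adjusted p = 0.00070). The means in those groups were 308 ± 115 after SP30, 495 ± 67.8 after SP300 at 10 mg/kg and 608 ± 135 after SP300 at 200 mg/kg, against 432 ± 112 in controls. SP30 minus SP70 was not called at 10 mg/kg (-0.54 ± 0.22, adjusted p = 0.059) or against SP70 40 mg/kg (-0.64 ± 0.22, adjusted p = 0.077), though each passed without some single mice. Of the 3 genes whose log2 signal was most like Rspo3 over the 35 arrays, Emcn (r = 0.707, and 0.628 within groups) is an endothelial sialomucin that was also on the list of endothelial markers, and Nanp and Plpp1 had r of 0.717 and 0.710.

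Markers of endothelial cells changed as well. Of 26 endothelial markers, all tested, 18 fell and 2 rose after SP30 (median change -1.40, against -0.12 over all genes), where 31.2% of all genes fell and 18% rose. After SP300 at 200 mg/kg 9 fell and 3 rose (median -0.27, against -0.06 over all genes), where 18% of all genes fell and 12.6% rose, and at 10 mg/kg none was called (median 0.28, against 0.06). At SP70 10, 20 and 40 mg/kg 3, 7 and 16 fell and 2, 3 and 2 rose (medians -0.15, -0.16 and -1.13, against 0.01, -0.03 and -0.09 over all genes), where 5.69%, 20.9% and 28.8% of all genes fell and 12.4%, 18.7% and 15.5% rose. Ptprb, an endothelial phosphatase, fell in these groups, with changes of -2.59 ± 0.15 after SP30, -1.14 ± 0.15 after SP300 at 200 mg/kg and -0.79 ± 0.15, -1.26 ± 0.15 and -2.24 ± 0.15 over the SP70 doses. Ehd3, Kdr and Bmp2 fell as well at SP70 40 mg/kg (-1.87 ± 0.14, -2.46 ± 0.21 and -2.19 ± 0.21), while Thbd, thrombomodulin, and Lyve1, a hyaluronan receptor of sinusoids, rose (1.81 ± 0.21 and 1.61 ± 0.42; adjusted p between 1.3e-14 and 0.0018 for the 6 genes). Thbd and Lyve1 were chosen after their values were seen.

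The summed signal of the 26 endothelial markers was between 14474 and 24381 after SP30, between 55402 and 63240.2 after SP300 at 10 mg/kg and between 19189 and 38953 after SP300 at 200 mg/kg. In the SP70 series it was between 42234 and 57746 in the controls, 31599 and 47077 at 10 mg/kg, 35343 and 39494 at 20 mg/kg, and 11640 and 23547 at 40 mg/kg. Every mouse at 20 mg/kg had a higher endothelial sum than every mouse at 40 mg/kg. Wnt2 was not told apart between those doses (0.30 ± 0.23 for 40 over 20 mg/kg, adjusted p = 0.46). Its signal lay under the filter level in 4 of 5 mice at SP70 20 mg/kg and in 2 of 5 at SP70 40 mg/kg. Signals that low limit what the Wnt2 comparison can show, so it is not read against the endothelial sums. Of the defining markers Kdr, Stab2, Ptprb and Clec4g, Kdr came nearest to the filter level at SP70 40 mg/kg. Its signal lay between 169 and 546 in that group and between 209 and 526 after SP30, against 1738 to 2234 in controls. At SP70 40 mg/kg Stab2 lay between 1401 and 2245, against 2666 to 4024 in controls. Ptprb lay between 620 and 996 at that dose, against 3712 to 4592 in controls. Clec4g, a lectin of sinusoidal endothelium, lay between 467 and 1808 at SP70 40 mg/kg and between 5657 and 10029 in controls. Other cell types moved too. Of 12 Kupffer cell markers, 9 fell after SP30, 11 after SP300 at 200 mg/kg and 8, 10 and 10 over the SP70 doses, and of 10 neutrophil markers 8 rose after SP30, 4 after SP300 at 200 mg/kg and 5, 6 and 7 over the SP70 doses, while none of either list was called at SP300 10 mg/kg. Of 12 stellate cell markers, 6 fell after SP30, 5 after SP300 at 200 mg/kg and 4, 5 and 6 over the SP70 doses. Of all genes, 31.2% fell and 18% rose after SP30, and 18% fell and 12.6% rose after SP300 at 200 mg/kg. Over the SP70 doses 5.69%, 20.9% and 28.8% of all genes fell, and 12.4%, 18.7% and 15.5% rose. Each of these lists was counted in a single direction, so the counts do not describe a list as a whole. Markers that moved the other way are not counted here, and 1 stellate cell marker rose at SP70 20 mg/kg. Summed over all tested markers of a list, the median control signal was 36602 (Kupffer), 2244 (neutrophil) and 43039 (stellate). At SP70 40 mg/kg it was 2352, 42002.5 and 35627 in the same order. The part of these cell types in the Wnt2 and Rspo3 values was not tested.

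The 3 genes most like Wnt2 over the 35 arrays were Selenoi (r = 0.768), Slc40a1 (r = 0.767) and Adck5 (r = 0.757). Within groups r was 0.263, 0.228 and 0.255 for the 3 in the same order, so the likeness lay mainly in the group means. Slc40a1 encodes ferroportin, the iron exporter, which is abundant in Kupffer cells. It fell in 5 groups, with changes of -1.90 after SP30, -1.28 after SP300 at 200 mg/kg, and -0.98, -1.47 and -1.54 over the SP70 doses (adjusted p between 6.14e-11 and 7.54e-05).

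Glul, glutamine synthetase, is confined to a rim of hepatocytes around the central vein, and it rose in 3 of the 6 treated groups, by up to 1.41-fold. Its signal was 19804, 24445, 24778, 22318 and 20533 in the SP30 mice. In the SP300 mice it was 20382, 22452, 25413, 23753 and 19004 at 10 mg/kg, and 23865, 30726, 25255, 30976 and 27723 at 200 mg/kg. All 5 SP300 mice at 200 mg/kg lay above the highest control, and the other treated groups overlapped the controls. The second Glul probe set that passed the filter differed in this. There all 5 mice at SP70 20 and at SP70 40 mg/kg lay above the highest control, and SP300 at 200 mg/kg overlapped, with 4 of 5 above. Along the SP70 series it was 18802, 17541, 23451, 19155 and 19523 in the controls, 22257, 26024, 22281, 17188 and 26373 at 10 mg/kg, 24062, 21983, 24064, 26009.9 and 21708 at 20 mg/kg, and 27129, 23946, 24331, 22345 and 22039 at 40 mg/kg. Control replicate 3, at 23451, lay within the treated range, and the other controls lay at 19523 or below.

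Against control, Glul rose by 0.49 ± 0.10 on the log2 scale after SP300 at 200 mg/kg (1.41-fold higher, adjusted p = 0.00023). It rose by 0.26 ± 0.10 at SP70 20 mg/kg (1.20-fold higher, adjusted p = 0.034) and by 0.29 ± 0.10 at SP70 40 mg/kg (1.22-fold higher, adjusted p = 0.019). The changes not called were 0.19 after SP30, 0.17 after SP300 at 10 mg/kg and 0.20 at SP70 10 mg/kg, each ± 0.10. The SP300 200 mg/kg call held in each alternative and without each mouse, whereas both SP70 calls were lost when each array was centred on its own median (0.17 at 20 mg/kg and 0.24 at 40 mg/kg, adjusted p = 0.20 and 0.069). The 20 mg/kg call was also lost with no filter on low signals (adjusted p = 0.051), and without control replicate 1, 2, 4 or 5 or SP70 20 mg/kg replicate 1, 3 or 4 (adjusted p between 0.053 and 0.099), and the 40 mg/kg call without control replicate 2 or SP70 40 mg/kg replicate 1 (adjusted p = 0.060 and 0.064).

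The slope of Glul over the SP70 dose was 0.00635 ± 0.00239 log2 units per mg/kg (adjusted p = 0.029). It was lost under centring (adjusted p = 0.096), and without control replicate 1 or 2 or SP70 40 mg/kg replicate 1 or 3 (adjusted p between 0.050 and 0.098). The second Glul probe set gave the same sign in all 6 groups, with 0.34 after SP30, 0.22 and 0.38 at the SP300 doses and 0.24, 0.46 and 0.42 over the SP70 doses. On that probe set the SP30 change was called, and it was not on the first. Between treated groups, Glul was 0.32 ± 0.10 higher at SP300 200 mg/kg than at 10 mg/kg (adjusted p = 0.013) and lower after SP30 than after SP300 at 200 mg/kg (-0.31 ± 0.10, adjusted p = 0.019). Both calls were lost when the 2 probe sets were averaged (adjusted p = 0.056 and 0.19), and the SP30 one also without SP30 replicate 1 or SP300 200 mg/kg replicate 2 or 4 (adjusted p between 0.058 and 0.063). By mean signal on the first probe set, Glul was highest at SP300 200 mg/kg (27709 ± 3185) and lay between 22201 and 23958 in the other treated groups, against 19694 ± 2228 in controls. The second probe set had its highest means at SP70 20 and 40 mg/kg (10839.6 ± 614 and 10569 ± 1518), then SP300 200 mg/kg (10277 ± 1101), against 7892 ± 991 in controls. Over the 35 arrays, Srsf1, a splicing factor, Inhbe, an inhibin subunit made by hepatocytes, and Mgat5, a glycosyltransferase, were most like Glul (r = 0.727, 0.727 and 0.723).

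Within each mouse, the difference of Hal and Glul on the log2 scale compares these enzymes alone, without the scale of the array. Relative to the control mean it was -2.12 ± 0.11 (SD, n = 5) after SP30, -0.07 ± 0.34 after SP300 at 10 mg/kg and -1.78 ± 0.21 after SP300 at 200 mg/kg. In the SP70 series it was 0 ± 0.54 in the controls, -0.61 ± 0.53 at 10 mg/kg, -1.54 ± 0.25 at 20 mg/kg and -2.36 ± 0.12 at 40 mg/kg. Controls ran from -0.50 to 0.73, so all mice of SP30, SP300 200 mg/kg and SP70 20 and 40 mg/kg lay below them. With Oat in place of Glul the means were -1.79 after SP30, -0.01 and -1.13 at the SP300 doses, and -0.56, -1.08 and -1.96 over the SP70 doses. Since Hal was known to fall and Glul to rise, these values are given as a description with no test. They describe these genes and not the zones, whose other genes are given below.

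Oat, ornithine aminotransferase, and Slc1a2, a glutamate transporter of the pericentral rim, were not called in any comparison of the main fit. For Oat, SP70 20 minus 10 mg/kg passed when arrays were centred (-0.39, adjusted p = 0.043). Without some single mice it also passed (adjusted p = 0.040 and 0.033). So did SP30 minus SP70 and SP30 minus SP300 at 10 mg/kg, and SP300 200 minus 10 mg/kg (adjusted p between 0.023 and 0.046). For Slc1a2, SP70 40 minus 20 and 40 minus 10 mg/kg passed without SP70 40 mg/kg replicate 1 (adjusted p = 0.040 and 0.024). The Oat signal ranged from 21261 to 46311 in the treated mice and from 26589 to 38572 in the controls, and its changes lay between -0.20 and 0.15 with an SE near 0.13. Slc1a2 ranged from 1165 to 2525 in the treated mice and from 1463 to 1817 in the controls, with changes between -0.08 and 0.30. The Slc1a2 probe sets differed among themselves. At SP70 20 mg/kg the used probe set gave 0.30 (adjusted p = 0.13), a second one, which lay near the filter level in controls, gave 0.88 (adjusted p = 0.010), and another gave 0.01 (adjusted p = 0.98). The Slc1a2 change at SP70 20 mg/kg was called when the probe sets were averaged (0.39, adjusted p = 0.044) and when only the groups compared were fitted (adjusted p = 0.040).

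Axin2, a feedback inhibitor and common readout of β-catenin activity, had a signal between 164 and 864 in the treated mice and between 283 and 502 in the controls. It averaged 350.2 ± 69.8 after SP30, 598 ± 208 after SP300 at 10 mg/kg and 393 ± 152 after SP300 at 200 mg/kg. With SP70 it averaged 416 ± 84.7 in controls, 415 ± 75.5 at 10 mg/kg, 356 ± 161 at 20 mg/kg and 371 ± 82.0 at 40 mg/kg. Against control the changes lay between -0.29 and 0.46 with an SE of 0.27, and none was called. The single called difference was SP30 minus SP300 at 10 mg/kg (-0.69 ± 0.27, adjusted p = 0.030), and that call was lost under quantile normalization (adjusted p = 0.056) and without SP30 replicate 1, 3 or 4 or SP300 10 mg/kg replicate 2, 3 or 4 (adjusted p between 0.051 and 0.11). The genes most like Axin2 over the 35 arrays were Hspbp1, Reep3 and Vmac (r = 0.668, 0.629 and 0.620).

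Rhbg, an ammonium transporter of the pericentral rim, was highest at the lowest SP70 dose. Over the SP70 doses its signal was 1079.8, 754, 1054, 742 and 759 in the controls, 1047, 1109.9, 1089, 1088 and 1342 at 10 mg/kg, 872, 762, 1041, 947 and 786 at 20 mg/kg, and 833, 766, 783, 656 and 747 at 40 mg/kg. Every mouse at 10 mg/kg lay above every mouse at 20 and at 40 mg/kg, while 2 controls lay at 1054 or above and 3 at 759 or below. The difference of 20 over 10 mg/kg was not called (-0.36 ± 0.14, adjusted p = 0.069). It passed when arrays were centred, when only those groups were fitted, and without SP70 20 mg/kg replicate 3 or SP300 200 mg/kg replicate 2 (adjusted p between 0.040 and 0.048). In the SP30 mice the signal was 849.7, 913, 804, 660.0 and 617, also below all SP70 10 mg/kg mice. The SP300 mice had signals between 757 and 1213 at 10 mg/kg and between 568 and 984 at 200 mg/kg.

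Against control, Rhbg changed by 0.38 ± 0.14 at SP70 10 mg/kg (adjusted p = 0.054), and the other 5 changes lay between -0.19 and 0.12. The 10 mg/kg value passed under the filter on the mean signal (adjusted p = 0.047), and also without control replicate 1 or 3, SP30 replicate 5, SP300 10 mg/kg replicate 2 or 3 or SP300 200 mg/kg replicate 2 (adjusted p between 0.024 and 0.049). Rhbg was lower at SP70 40 than at 10 mg/kg (-0.58 ± 0.14, adjusted p = 0.0018) and lower after SP30 than after SP70 at 10 mg/kg (-0.56 ± 0.14, adjusted p = 0.0023). The slope over the SP70 dose, -0.00821 ± 0.00335 log2 units per mg/kg (adjusted p = 0.044), was lost without filtering (adjusted p = 0.064), under quantile normalization (0.13), with the adjustment over all kept probe sets (0.055) and without any of 7 single mice (control replicates 1 and 3, SP70 10 mg/kg replicate 5, and SP70 40 mg/kg replicates 2, 3, 4 and 5; adjusted p between 0.056 and 0.12). Over the 35 arrays, Trim24, a transcriptional cofactor, Vrk1 and Mipep were most like Rhbg (r = 0.705, 0.650 and 0.623).

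Among the other genes of both zones, more fell than rose in each group with calls. The same held for all genes in those groups, except at SP70 10 mg/kg. Of 23 other pericentral genes tested, 14 fell and 3 rose after SP30 (median -0.35), 9 fell and 2 rose after SP300 at 200 mg/kg (median -0.12), and 3, 8 and 11 fell and 2, 3 and 2 rose over the SP70 doses (medians -0.09, -0.21 and -0.33). Of 24 other periportal genes tested, 10 fell and 1 rose after SP30 (median -0.14), 12 fell and 1 rose after SP300 at 200 mg/kg (median -0.24), and 0, 7 and 15 fell and 0, 0 and 2 rose over the SP70 doses (medians 0.03, -0.06 and -0.20). None of either list was called at SP300 10 mg/kg. The periportal count at SP300 200 mg/kg was 5 in place of 12 when each array was centred on its median. Of all genes, 31.2% fell and 18% rose after SP30 (median -0.12), and 18% fell and 12.6% rose after SP300 at 200 mg/kg (median -0.06). Over the SP70 doses 5.69%, 20.9% and 28.8% of all genes fell, and 12.4%, 18.7% and 15.5% rose (medians 0.01, -0.03 and -0.09).

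**Figure D4:**
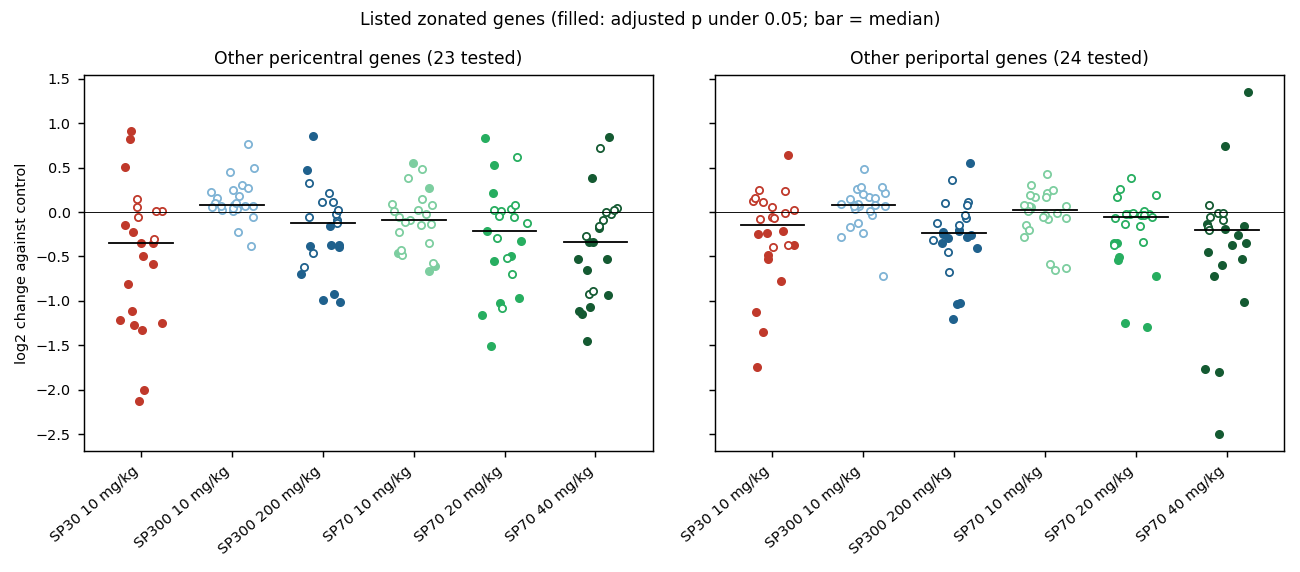
Change against control (vertical axis, difference of log2 signal) of 23 other pericentral genes (left) and 24 other periportal genes (right) in the 6 treated groups; filled points had an adjusted p under 0.05 and bars are medians. Both lists reach below -1.5 after SP30, the periportal list alone does so at SP70 40 mg/kg, where the lowest pericentral value is -1.45, and no point is filled at SP300 10 mg/kg.

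Among the pericentral genes, those with the smallest adjusted p at SP70 40 mg/kg were Nr1i3, the xenobiotic receptor CAR (-1.45 ± 0.17), Aldh3a2, a fatty aldehyde dehydrogenase (-1.07 ± 0.15), Ahr, the aryl hydrocarbon receptor (-1.11 ± 0.18), and Lgr5, the receptor that binds R-spondins on pericentral hepatocytes (-1.15 ± 0.21), with adjusted p between 1.7e-08 and 2.2e-05. Lgr5 also fell in 3 other groups, with changes of -1.28 ± 0.21 after SP30, -1.01 ± 0.21 after SP300 at 200 mg/kg and -0.96 ± 0.21 at SP70 20 mg/kg (adjusted p between 3.6e-06 and 0.00029). Slc13a3, a dicarboxylate transporter chosen after its values were seen, rose by 0.83 after SP30, 0.86 after SP300 at 200 mg/kg, and 0.83 and 0.85 at SP70 20 and 40 mg/kg, each ± 0.16 (adjusted p between 4.4e-05 and 7.5e-05). The cytochromes Cyp2e1 and Cyp1a2 of the same zone, chosen after their values were seen, stood apart from each other. Cyp2e1 lay between -0.10 and 0.15 in the 6 groups, each ± 0.07, and was not called, and Cyp1a2 fell, with changes of -0.23 after SP30, -0.37 after SP300 at 200 mg/kg, and -0.21 and -0.34 at SP70 20 and 40 mg/kg.

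Among the periportal genes, G6pc, the last enzyme of glucose release, fell by 2.50 ± 0.25 at SP70 40 mg/kg (adjusted p = 3.9e-10), and changed by -1.35 after SP30, -1.03 after SP300 at 200 mg/kg and -1.30 at SP70 20 mg/kg. Etnppl, which breaks down phosphoethanolamine, fell by 1.80 ± 0.26, and Ass1, argininosuccinate synthase of the urea cycle, fell by 1.77 ± 0.33 at SP70 40 mg/kg (adjusted p = 7.6e-07 and 3.9e-05). The periportal genes that rose in that group were Cyp17a1 and Apoa4. The periportal marker Cyp2f2, chosen after its values were seen, fell by 0.25 ± 0.07 at SP70 40 mg/kg (adjusted p = 0.0021) and changed by -0.29 ± 0.07 after SP300 at 200 mg/kg (adjusted p = 0.00084).

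Genes that handle ammonia and glutamine, in which Hal, Glul, Oat, Slc1a2 and Rhbg each take part, were also counted. Of 18 tested, some of them also on the periportal list, 9 fell and 1 rose after SP30, 9 fell and 0 rose after SP300 at 200 mg/kg, and 1, 8 and 12 fell and 0, 1 and 1 rose over the SP70 doses. Of all genes, 31.2% fell after SP30, 18% after SP300 at 200 mg/kg, and 5.69%, 20.9% and 28.8% over the SP70 doses. The shares that rose were 18%, 12.6%, and 12.4%, 18.7% and 15.5% in the same order. The count that fell at SP70 10 mg/kg was 4 in place of 1 under quantile normalization. The median change of the list was -0.30 after SP30, -0.26 after SP300 at 200 mg/kg, and -0.07, -0.30 and -0.37 over the SP70 doses, against -0.12, -0.06, 0.01, -0.03 and -0.09 over all genes in the same order. At SP70 40 mg/kg the smallest adjusted p belonged to Aldh4a1 and Prodh, which turn proline into glutamate (-0.89 ± 0.10 and -0.92 ± 0.14), Slc25a15, the mitochondrial ornithine carrier (-0.98 ± 0.12), and Gpt, alanine aminotransferase (-0.68 ± 0.09), with adjusted p between 2.9e-09 and 7.9e-07. Cps1, the entry enzyme of the urea cycle, and Aldh18a1 were chosen after their values were seen. Cps1 changed by -0.14 ± 0.05 (adjusted p = 0.040). Aldh18a1, which makes the precursor of proline and ornithine from glutamate, was the gene that rose, by 0.69 at SP70 40 mg/kg.

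Other Wnt genes were followed by role, on 4 lists. Lgr5, Rnf43, Znrf3 and Nkd1 were also among the other pericentral genes, so their calls are counted in both places. The shares of all genes to read their counts against are 31.2% that fell and 18% that rose after SP30, 18% and 12.6% after SP300 at 200 mg/kg, and, over the SP70 doses, 5.69%, 20.9% and 28.8% that fell and 12.4%, 18.7% and 15.5% that rose. Of 13 other ligands, R-spondins and secretion factors tested, 2 fell and 0 rose after SP30, 2 fell and 2 rose after SP300 at 200 mg/kg, and 0, 1 and 1 fell and 0, 1 and 1 rose over the SP70 doses. Apart from the genes that rose after SP300 at 200 mg/kg, these shares lay under those of all genes. Wls, which carries Wnt proteins to the cell surface, fell in 4 groups, with changes of -0.94 ± 0.25 after SP30, -0.71 ± 0.25 after SP300 at 200 mg/kg, and -0.72 ± 0.25 and -1.26 ± 0.25 at SP70 20 and 40 mg/kg (adjusted p between 9.7e-05 and 0.030). Rspo2, a relative of Rspo3, rose by 1.51 ± 0.47 at SP70 40 mg/kg (adjusted p = 0.0090) and by 1.29 ± 0.47 after SP300 at 200 mg/kg (adjusted p = 0.036). Wnt9b, the other Wnt ligand known from central vein endothelium, chosen after its values were seen, had changes between -1.07 and 0.21 with an SE of 0.46 and was not called.

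Of 17 Wnt receptors and receptor regulators, 8 fell and 2 rose after SP30, 3 fell and 1 rose after SP300 at 200 mg/kg, and 3, 5 and 6 fell and 2, 3 and 2 rose over the SP70 doses. The share that fell was near that of all genes after SP300 at 200 mg/kg and above it after SP30 and at SP70 10 mg/kg. At SP70 20 and 40 mg/kg it was above by a small margin for a list of 17 genes. The median change was -0.32 after SP30 and -0.13 at SP70 40 mg/kg, against -0.12 and -0.09 over all genes. At SP70 40 mg/kg the Frizzled receptors Fzd8 and Fzd4 changed by -1.69 ± 0.23 and -0.61 ± 0.15, and Rnf43, which removes such receptors from the surface, changed by -0.94 ± 0.27 (adjusted p = 2.1e-07, 0.0012 and 0.0046). Lgr4, the broadly expressed R-spondin receptor, chosen after its values were seen, moved opposite to Lgr5, and rose by 0.68 after SP30, 0.35 after SP300 at 200 mg/kg, and 0.52, 0.37 and 0.27 over the SP70 doses, each ± 0.08 (adjusted p between 1.1e-08 and 0.0069). Of 16 Wnt inhibitors, 4 fell and 1 rose after SP30, 2 fell and 2 rose after SP300 at 200 mg/kg, and 2, 3 and 3 fell and 1, 4 and 3 rose over the SP70 doses. The share of inhibitors that fell lay under that of all genes in these groups except SP70 10 mg/kg. Notum, a secreted inhibitor that is itself a target of Wnt signals, fell, with changes of -0.80 after SP30, -0.85 after SP300 at 200 mg/kg, and -0.37, -0.73 and -0.74 over the SP70 doses, each ± 0.13 (adjusted p between 2.8e-06 and 0.037). Tle3, a corepressor of TCF factors, rose by 1.02 ± 0.14 at SP70 40 mg/kg (adjusted p = 3.7e-07).

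Of 9 effectors of the pathway, 3 fell and 2 rose after SP30, 2 fell and 0 rose after SP300 at 200 mg/kg, and 1, 2 and 3 fell and 2, 1 and 1 rose over the SP70 doses. In a list of 9 genes these counts lay within 2 genes of what the shares of all genes give. Ctnnb1, β-catenin itself, chosen after its values were seen, changed by 0.00 ± 0.06 at SP70 40 mg/kg (adjusted p = 0.99). Tcf7l2, the main TCF factor of hepatocytes, fell, with changes of -1.10 after SP30, -1.32 after SP300 at 200 mg/kg, and -0.51, -0.68 and -0.91 over the SP70 doses, each ± 0.16 (adjusted p between 3.8e-08 and 0.019). None of the genes on the 4 lists was called at SP300 10 mg/kg.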

How the data were processed

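Total RNA of the left lateral liver lobe of 35 mice was amplified, labelled with biotin and hybridized, 1 array per mouse, per the labels' protocols. The deposited values are the intensity (signal) of 45101 probe sets on a linear scale. MAS5 is named, without a version, in the submitters' processing notes, and how arrays were scaled is not stated there. Mean signals per array, with 2% trimmed off both ends, lay between 887 and 1139, and the values were used as they stand. The platform's annotation gave 34945 probe sets 1 gene and 932 several. Precision is limited by the 5 arrays per group; 0 pairs of arrays held identical values.

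Signals were turned into log2(signal + 12.5), the added amount being the 10th percentile of the deposited signals. A probe set was kept (26864) where 5 arrays or more exceeded 165, the overall median signal, and the one with the highest mean was used per gene (12678 genes). limma 3.58.1 in R 4.3.3 (lmFit, contrasts, eBayes with a trend) fitted a mean per group over all 35 arrays, with two-sided p-values adjusted by Benjamini-Hochberg within each of 17 comparisons (6 with control, the SP70 slope, 10 between treated groups), at a threshold of 0.05. A fold with a mouse under 165 in the lower group was computed from signals raised to 165 and given as "at least". The same wording was set for a higher group with a mouse above 48037, a level that no measured member reached.

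The members, the 16 gene lists and the alternatives were chosen with earlier results of these data known. List genes were named by rule (up to 4 with the smallest adjusted p at SP70 40 mg/kg). Those outside it (Uroc1, Thbd, Lyve1, Slc13a3, Cyp2e1, Cyp1a2, Cyp2f2, Cyp17a1, Apoa4, Cps1, Aldh18a1, Wnt9b, Lgr4 and Ctnnb1) were chosen after their values were seen. The genes most like a member were the 3 with the highest Pearson r over the arrays. Alternatives changed the pseudocount, the filter, the normalization, the probe set rule, the groups fitted and the block, and left out each mouse. Replicate numbers did not pair the mice: deviations from the group mean correlated at -0.000692 on average over 105 same-numbered pairs of arrays (from -0.104 to 0.111) and at 0.000169 over 420 other pairs. Promoter windows are RefSeq's.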

Additional observations from a re-analysis of the deposited data

Results flagged for a closer look

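Of 56 sets of 5 signals (8 genes in 7 groups), 6 held a mouse whose gap to its nearest neighbour was above Dixon's 95% level, where chance flags about 5%. For Hal this was SP70 20 mg/kg replicate 1, the lowest of its group at 3760.1, and the other 4 mice lay between 4926 and 5241. For Oat it was SP70 20 mg/kg replicate 3, the highest at 34606, and for Rhbg SP70 10 mg/kg replicate 5, the highest at 1342. Rspo3 gave 3 of the 6, each the lowest of its group, with 269 in SP70 10 mg/kg replicate 1, 265 in SP70 40 mg/kg replicate 3 and 381 in SP300 10 mg/kg replicate 1.

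Between treated groups, 11 called differences joined groups whose changes against control had opposite signs, though most of those changes were themselves not called. At 10 mg/kg, SP30 minus SP300 was -2.04 for Hal, -1.08 for Wnt2, -0.72 for Rspo3 and -0.69 for Axin2. SP70 minus SP300 at 10 mg/kg was -0.51 for Hal and -0.75 for Wnt2. SP300 at 200 minus 10 mg/kg was -1.39 for Hal and -0.90 for Wnt2. SP30 minus SP300 at 200 mg/kg was -0.99 for Rspo3. For Rhbg, SP70 at 40 minus 10 mg/kg was -0.58, and SP30 minus SP70 at 10 mg/kg was -0.56.

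Probe sets of the members other than the ones used also held called changes against control. The second Glul probe set rose by 0.34 after SP30, by 0.38 after SP300 at 200 mg/kg, and by 0.46 and 0.42 at SP70 20 and 40 mg/kg. A second Slc1a2 probe set rose by 0.88 at SP70 20 mg/kg.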

How the results depend on the processing

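The counts of 11 calls against control, 4 over the SP70 dose and 19 between treated groups stayed within 1.5 times of these values under all 10 alternatives that kept all mice, from 9 to 13, 3 to 4 and 17 to 22. With the replicate number as a block they were 12, 4 and 20. Without each mouse in turn they ran from 9 to 13, from 1 to 4 and from 17 to 21; the 1 was without SP70 40 mg/kg replicate 3, where Hal kept its slope and Glul, Rhbg and Wnt2 lost theirs. Over the members' 1360 values under the first alternatives, 12 lost a call, 13 gained one and 0 called values changed sign; without each mouse, 40 lost, 37 gained and 0 reversed of 4760. Hal at SP30, SP300 200 mg/kg and SP70 20 and 40 mg/kg, Wnt2 at SP30 and SP70 20 and 40 mg/kg, and Glul at SP300 200 mg/kg were called in every fit. Under quantile normalization Hal and Wnt2 at SP70 10 mg/kg were called too (adjusted p = 0.0406 and 0.0412). Centring moved the median of all genes for SP70 40 over SP300 200 mg/kg to -0.16, against -0.06. Counts of list genes moved by 1.5 times or more in 88 of 1560 values, mostly counts of 5 or fewer; of hepatocyte markers 4 fell at SP300 200 mg/kg and 0 when centred. Depth has no counterpart here, but Wnt2 lay under 165 in many treated mice, which limits its folds.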
